A study of Rattus norvegicus with 12 samples.

Results

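Gpr126, Gpr165, Calml4, Cpne5, Cftr, Cyp1b1, Hapln1 and Abr are 8 genes with little described role in blood vessels, and they were picked because their signal was lower in ECs (endothelial cells) of the DA (ductus arteriosus) than in ECs of the aorta both before and after birth. They are 8 of 14504 named genes on the array, and each is read by 1 of the 26468 probe sets, a probe set being the group of probes that reads 1 transcript cluster. The arrays fell into 4 groups of 3. DA N and aorta N are ECs of Wistar rat neonates taken 30 minutes after birth, and DA F and aorta F are ECs of Wistar rat fetuses at day 21 of gestation, before breathing. Pups of all groups were delivered by cesarean section, no drug or genetic change was used, and the aorta was its descending part. Tissue of many animals was pooled and CD31-positive, CD45-negative cells were sorted, so each array reads a pool of animals. The p-values weigh differences against the spread between arrays of a group, which holds pool variation and whatever goes with the replicate number. Where the replicate number was fitted as a block, what same-numbered arrays share was taken out of that spread.

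The DA is the fetal artery that carries blood from the pulmonary artery past the lungs into the aorta, and it closes after birth while the aorta does not. ECs line both vessels, are in touch with the blood, and pass signals to the smooth muscle beneath through receptors, ion flow and the matrix they make. The 8 genes act at different levels of that cell. Gpr126 (current symbol Adgrg6) and Gpr165 are membrane receptors, Calml4 and Cpne5 bind calcium, Cftr is a chloride channel, Cyp1b1 is an enzyme, Hapln1 holds extracellular matrix together, and Abr regulates small GTPases.

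The defining EC markers Cdh5 and Tek gave high signals in every group. Cdh5, the cadherin of endothelial junctions, averaged 11.05 in DA N, 11.14 in aorta N, 11.07 in DA F and 11.09 in aorta F on the log2 scale of the deposited signals. Tek, the angiopoietin receptor, averaged 11.29 in DA N, 11.41 in aorta N, 11.26 in DA F and 11.45 in aorta F. Of the 15 endothelial markers tested, 13 were lower in the DA on average over both stages, with a median difference of -0.19. Those that passed a test are named further below. Ptprc, which encodes CD45, and the epithelial marker Epcam did not reach the mean of the lys spike, an RNA added to every sample at low amount, which served as the lower limit for testing (4.44). Other leukocyte and epithelial markers did reach it, among them Cd68 and Krt8. Some genes used as markers of fibroblasts and smooth muscle gave high signals in every group, and others did not. Group means were 10.98 to 11.49 for Col1a1 and 10.42 to 11.08 for Acta2. They were 5.78 to 6.38 for the smooth muscle marker Myh11, and the fibroblast markers Lum and Fap did not reach the lys mean. The share of such cells in the sorts was not tested. The median signal of the 12 arrays lay between 5.63 and 5.76, while the lys spike itself differed with the replicate number, at 4.53 to 6.17 on the arrays numbered 1, 4.16 to 4.78 on those numbered 2 and 3.41 to 3.53 on those numbered 3. Array signals of different probe sets are not on a common scale of RNA amount, so each gene is compared only with itself.

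All 8 genes matched a promoter in the RefSeq table of the rat build GRCr8, as the stretch from 250 bases before to 50 bases after the annotated start. GCGTG, the core of the site bound by the aryl hydrocarbon receptor (Ahr), was searched on both strands because Cyp1b1 is a known target of that receptor. It was present in the promoters of Gpr126, Cpne5, Cftr, Cyp1b1 and Hapln1, 5 of 8, against 29.7% of 33469 promoters in the table. The promoters of the 8 genes were 53.7% to 76.7% G and C, against a median of 51.7% over all promoters, and a motif made of G and C letters occurs more often in such sequence. 4 promoters are shown, the one of Cyp1b1 as the known target, those of Gpr126 and Hapln1 as genes of the set whose deviations between replicate arrays ran most closely together, and the one of Calml4 as a promoter without the letters. Each runs 5′ to 3′ on the strand of its gene, and capitals mark GCGTG, or CACGC where the core lies on the other strand. The places are chr6:21094315-21094614 on the plus strand for Cyp1b1, chr1:10773826-10774125 on the minus strand for Gpr126, chr2:22366717-22367016 on the plus strand for Hapln1 and chr8:72218636-72218935 on the plus strand for Calml4.
Cyp1b1: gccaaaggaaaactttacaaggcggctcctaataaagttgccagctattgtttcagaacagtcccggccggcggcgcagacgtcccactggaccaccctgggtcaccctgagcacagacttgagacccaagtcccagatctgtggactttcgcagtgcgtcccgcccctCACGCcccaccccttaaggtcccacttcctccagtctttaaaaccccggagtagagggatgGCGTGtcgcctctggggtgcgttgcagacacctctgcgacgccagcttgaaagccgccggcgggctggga
Gpr126: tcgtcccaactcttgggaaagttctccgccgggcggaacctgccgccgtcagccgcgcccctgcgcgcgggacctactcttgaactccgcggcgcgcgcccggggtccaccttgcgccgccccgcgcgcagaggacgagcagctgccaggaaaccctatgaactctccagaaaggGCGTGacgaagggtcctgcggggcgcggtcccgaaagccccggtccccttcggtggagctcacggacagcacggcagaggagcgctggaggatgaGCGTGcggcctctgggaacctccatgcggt
Hapln1: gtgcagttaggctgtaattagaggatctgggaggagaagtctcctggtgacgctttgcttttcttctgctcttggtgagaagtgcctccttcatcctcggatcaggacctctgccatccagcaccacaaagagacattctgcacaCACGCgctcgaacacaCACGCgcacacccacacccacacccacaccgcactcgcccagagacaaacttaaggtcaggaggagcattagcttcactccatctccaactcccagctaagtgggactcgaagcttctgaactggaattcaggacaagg
Calml4: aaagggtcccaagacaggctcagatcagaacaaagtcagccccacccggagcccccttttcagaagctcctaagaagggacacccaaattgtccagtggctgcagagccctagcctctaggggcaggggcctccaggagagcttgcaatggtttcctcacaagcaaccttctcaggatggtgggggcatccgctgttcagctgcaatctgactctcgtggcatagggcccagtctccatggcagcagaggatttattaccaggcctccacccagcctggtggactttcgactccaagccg

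The Cyp1b1 window held the core at 2 places, with its first base 81 and 20 bases before the start, the farther one as CACGC. In the Gpr126 window it stood 75 bases before and 20 bases after the start, and in that of Hapln1 105 and 89 bases before the start, both times as CACGC. The further motifs were also searched on both strands. The GC box GGGCGG was in 6 of the 8 promoters, against 33.1% of all. CCAAT was in 3 of 8, those of Gpr165, Cftr and Abr, against 37.5%. TATAAA was in that of Gpr165 alone, against 14.2%. TGACG, the core of the cyclic AMP response element, was in those of Gpr126 and Hapln1, against 21.2%. GTGGGAA, a site of the Notch partner RBPJ, was in that of Cpne5, against 6.29%. Motifs that adjoin can share bases at their ends. A match is a description of the letters, and binding was not measured.

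The difference between the vessels chose these genes, so it is described with no test. In both stages the highest DA array lay below the lowest aorta array for each of the 8 genes. Over all 18690 probe sets tested, limma called 1.87% lower in the DA in N and 2.28% lower in the DA in F at a Benjamini-Hochberg adjusted p under 0.05, and nothing is read from that share for genes picked on the same difference. The samples were sorted cells in bulk, in which fewer cells that express a gene and less RNA of it in each cell cannot be told apart.

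**Figure D1:**
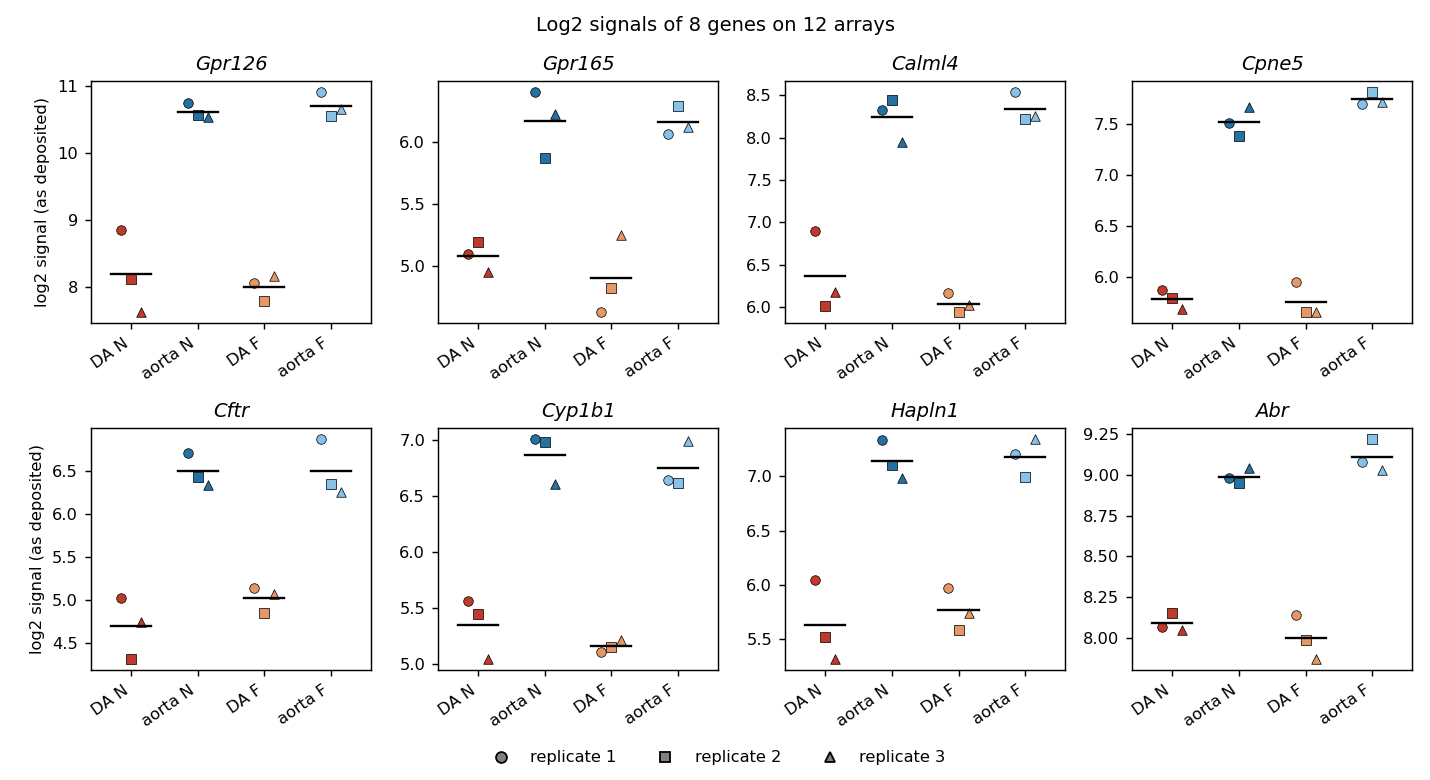
Log2 signal, as deposited, of each of the 8 genes on the 12 arrays, with the 4 groups on the x axis, a point per array shaped by replicate number and a line at each group's mean. In every panel the 3 DA arrays of a stage lie below the 3 aorta arrays of that stage, and Gpr126 in DA N spreads over the widest range, 7.62 to 8.85.

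Gpr126 is an adhesion G protein-coupled receptor that raises cyclic AMP and is required for myelination by Schwann cells in zebrafish and mouse. Its log2 signal was 8.85, 8.11 and 7.62 in DA N, against 10.75, 10.56 and 10.54 in aorta N. It was 8.05, 7.79 and 8.16 in DA F, against 10.91, 10.55 and 10.66 in aorta F. It had the largest vessel difference of the 8 genes in both stages, at -2.42 in N and -2.71 in F (DA minus aorta), which makes the DA signal 0.186 and 0.153 of the aorta signal. These differences ranked 9 and 5 from the lowest of all 18690 probe sets. The lowest aorta array exceeded the highest DA array by 1.69 in N and by 2.39 in F. The 3 DA N arrays differed among themselves (SD 0.62) more than those of the other groups (SD 0.11 in aorta N, 0.19 in DA F and 0.19 in aorta F). Without DA N replicate 1 the difference in N was -2.75, and without DA N replicate 3 it was -2.14.

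Gpr165 is an orphan receptor of the rhodopsin class, with no ligand known. Its log2 signal was 5.10, 5.19 and 4.95 in DA N, against 6.40, 5.87 and 6.22 in aorta N. It was 4.63, 4.82 and 5.25 in DA F, against 6.06, 6.29 and 6.12 in aorta F. The vessel difference was -1.08 in N and -1.25 in F, a ratio of DA to aorta signal of 0.473 and 0.419. Its dimmest aorta array lay 0.68 above its brightest DA array in N, the narrowest gap of any of the genes. Replicate 1 of DA N and replicate 1 of DA F lay below the lys spike of their own array.

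Calml4 encodes a calmodulin-like protein, which in intestinal epithelium of human and mouse serves as a light chain of the brush border motor Myo7b. The log2 signal was 6.90, 6.01 and 6.18 in DA N, against 8.33, 8.45 and 7.95 in aorta N. In DA F it was 6.16, 5.94 and 6.02, against 8.54, 8.22 and 8.26 in aorta F. DA N replicate 1 stood above the other DA arrays of both stages, and the vessel groups still lay 1.05 apart in N and 2.06 apart in F. The difference was -1.88 in N and -2.30 in F, so that the DA signal was 0.271 and 0.203 of the aorta signal.

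Cpne5 belongs to the copines, proteins that bind membrane phospholipids in a calcium-dependent way. It read 5.87, 5.79 and 5.68 in DA N, against 7.51, 7.39 and 7.67 in aorta N on the log2 scale. It read 5.95, 5.65 and 5.65 in DA F, against 7.70, 7.82 and 7.72 in aorta F. The arrays of a group lay close together for this gene (SD 0.10 in DA N, 0.14 in aorta N, 0.17 in DA F and 0.06 in aorta F). The vessel difference was -1.74 in N and -2.0 in F, with ratios of 0.299 and 0.250.

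Cftr is a chloride and bicarbonate channel opened by cyclic AMP-dependent phosphorylation, known from secreting epithelia. Its log2 signal was 5.02, 4.31 and 4.74 in DA N, against 6.71, 6.43 and 6.34 in aorta N. It was 5.14, 4.85 and 5.07 in DA F, against 6.87, 6.35 and 6.26 in aorta F. The difference was -1.80 in N and -1.47 in F, with ratios of 0.287 and 0.361. Replicates 1 and 2 of DA N and replicate 1 of DA F lay below the lys spike of their own array, more readings than for any other gene of the set. Epithelial cells are known to make Cftr, and their markers were read beside it. Of the 10, 5 did not reach the lys mean, among them Epcam and Cdh1, and 0 of the 5 tested were called by limma, 2 of them with an unadjusted p under 0.05. The mean log2 signal of that list was 5.13 to 5.30 in DA N, 5.29 to 5.38 in aorta N, 5.28 to 5.45 in DA F and 5.29 to 5.33 in aorta F. With the replicate number as a block 1 of the 5 was called, Krt19 (-0.35, adjusted p = 0.0234).

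Cyp1b1 is a cytochrome P450 that oxidises oestradiol, retinol and polycyclic hydrocarbons. Its log2 signal was 5.56, 5.44 and 5.04 in DA N, against 7.01, 6.98 and 6.61 in aorta N. It was 5.10, 5.15 and 5.21 in DA F, against 6.64, 6.62 and 6.99 in aorta F. The differences of -1.52 in N and -1.60 in F were the most alike between the stages for any of the genes, with ratios of 0.349 and 0.331. Replicate 1 of both DA groups lay below its own lys spike.

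Hapln1 is a link protein that clamps proteoglycans such as versican onto hyaluronan, and mice without it have heart defects. The log2 signal was 6.05, 5.52 and 5.32 in DA N, against 7.33, 7.10 and 6.98 in aorta N. In DA F it was 5.97, 5.59 and 5.74, against 7.20, 6.99 and 7.34 in aorta F. Replicate 1 was the highest array of DA N, of aorta N and of DA F. The difference was -1.50 in N and -1.41 in F, with ratios of 0.353 and 0.378. Chondrocytes are another cell type that makes Hapln1. Their markers showed 2 of 8 tested lower in the DA over both stages, Col9a1 (-0.50, adjusted p = 0.00250) and Col11a1 (-0.42, adjusted p = 0.0118). With the block 3 of the 8 were lower, adding Matn3 (-0.35, adjusted p = 0.021), which also passed with the stricter filter. Acan, a defining marker, lay between 4.95 and 5.10 in all 4 group means and Col2a1 between 6.57 and 6.62. The mean log2 signal of the chondrocyte list was 5.50 to 5.80 in DA N, 5.67 to 6.04 in aorta N, 5.46 to 5.71 in DA F and 5.66 to 5.87 in aorta F, and the part of such cells in the Hapln1 difference was not tested.

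Abr carries both an exchange domain and a GTPase-activating domain and turns off Rac and Cdc42. It read 8.07, 8.15 and 8.05 in DA N, against 8.98, 8.95 and 9.04 in aorta N on the log2 scale. It read 8.14, 7.99 and 7.87 in DA F, against 9.08, 9.22 and 9.03 in aorta F. This was the smallest vessel difference of the 8, at -0.90 in N and -1.11 in F (ratios of 0.535 and 0.463), and ranked 180 and 126 from the lowest. Its SD pooled over the 4 groups was the smallest of the 8 genes at 0.09, with SDs of 0.05 in DA N, 0.05 in aorta N, 0.13 in DA F and 0.10 in aorta F.

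Of the 96 readings of the 8 genes, 10 lay below the lys spike of their own array. All 10 were from the DA, and 9 came from arrays numbered 1, on which the spike was highest. They belonged to 6 of the genes, Gpr126 and Abr having none. The spike on arrays numbered 1 was also higher in the DA (5.78 in N and 6.17 in F) than in the aorta (5.18 and 4.53). These readings ran from 4.31 (Cftr, DA N replicate 2) to 6.16 (Calml4, DA F replicate 1). The latter lay above its array's median of 5.67, so a reading below the spike is not always near the lower limit. For the lower of them the ratio of DA to aorta signal rests on a DA signal near the limit for testing. The part of the spike in this count was not tested.

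The comparison that the choice did not use is the one between N and F within a vessel, which asks whether the 30 minutes after birth moved these genes. In the DA, N minus F was 0.19 for Gpr126 (95% interval -0.34 to 0.72), 0.18 for Gpr165 (-0.20 to 0.56), 0.32 for Calml4 (-0.14 to 0.78) and 0.03 for Cpne5 (-0.24 to 0.30). It was -0.33 for Cftr (-0.77 to 0.11), 0.19 for Cyp1b1 (-0.17 to 0.55), -0.14 for Hapln1 (-0.54 to 0.27) and 0.09 for Abr (-0.15 to 0.33). None of the 8 passed limma's test in the DA, and 0.00535% of all probe sets did. Every one of these intervals includes 0, and they reach as far as 0.78 for Calml4 and -0.77 for Cftr on the log2 scale.

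In the aorta, N minus F was -0.09 for Gpr126 (-0.62 to 0.44), 0.00 for Gpr165 (-0.38 to 0.39), -0.10 for Calml4 (-0.56 to 0.37) and -0.22 for Cpne5 (-0.49 to 0.05). It was 0.00 for Cftr (-0.44 to 0.44), 0.12 for Cyp1b1 (-0.24 to 0.47), -0.04 for Hapln1 (-0.45 to 0.37) and -0.12 for Abr (-0.36 to 0.12). Again limma called 0 of the 8, and 0% of all probe sets, 257 of which had an unadjusted p under 0.05. Over both vessels together 0 of the 8 and 0.0107% of all probe sets were called, and the 8 values lay between -0.17 for Cftr and 0.15 for Cyp1b1.

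**Figure D2:**
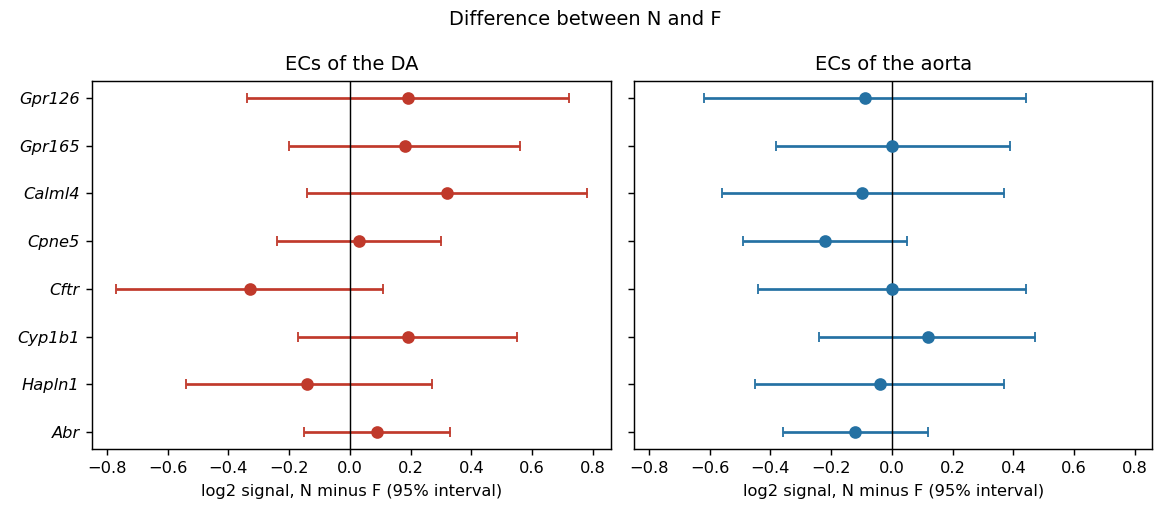
Difference in log2 signal between N and F for the 8 genes in ECs of the DA and of the aorta, as points with 95% intervals from limma (3 arrays per group). All 16 intervals cross 0, with the points farthest from 0 those of Cftr (-0.33) and Calml4 (0.32) in the DA.

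With the change in the vessel difference between the stages, described next, these comparisons gave 32 results for the 8 genes. None had an unadjusted p under 0.05, the smallest being 0.099 for Cpne5 in the aorta. With the replicate number as a block 1 did, Cftr in the DA (limma, adjusted p = 0.58). With 1 array left out, 1 result had an unadjusted p under 0.05 in each of 3 settings, Cftr without DA N replicate 1, Calml4 without DA N replicate 2 and Gpr126 without DA N replicate 3, all in the DA and none past the adjusted threshold. The same-numbered differences of Cftr in the DA were -0.12, -0.55 and -0.33. Those of Gpr126 in the DA were 0.80, 0.32 and -0.54 and did not share a sign. Without DA N replicate 1 the value of Gpr126 was -0.14.

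The vessel difference itself was also compared between the stages. The choice asked for a difference in both stages, so a gene without a gap in 1 stage could not be among the 8. This comparison is therefore not free of the choice. The change in DA minus aorta, N minus F, was 0.42 for Calml4 (-0.24 to 1.07), 0.28 for Gpr126 (-0.47 to 1.04), 0.25 for Cpne5 (-0.13 to 0.64) and 0.21 for Abr (-0.13 to 0.55). It was 0.17 for Gpr165 (-0.37 to 0.71), 0.08 for Cyp1b1 (-0.43 to 0.59), -0.10 for Hapln1 (-0.67 to 0.48) and -0.33 for Cftr (-0.96 to 0.29). Limma called 0 of the 8 and 0% of all probe sets (174 with an unadjusted p under 0.05). For these genes a positive value means a narrower gap between the vessels in N, so 6 of the 8 estimates lay on that side and those of Cftr and Hapln1 on the other, each with an interval that includes 0. Over all probe sets tested the median change was 0.017 (SD 0.189), and nothing is read from the 6.

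The spread between arrays of 1 group was not the same for all of the genes, and it followed the replicate number for some. Replicate 1 lay above its group's mean in all 4 groups for Gpr126 (by 0.05 to 0.66), Calml4 (0.08 to 0.54), Cftr (0.12 to 0.38) and Hapln1 (0.03 to 0.42). Replicate 2 lay below it in all 4 groups for Gpr126, Cftr and Hapln1, and replicate 3 did so for Calml4 (by -0.29 to -0.02). Gpr165, Cpne5, Cyp1b1 and Abr had no replicate number on 1 side of the mean in every group. DA N replicate 1 had the largest positive deviation for Gpr126, Calml4 and Hapln1. The means of the 10 marker lists deviated by -0.20 to 0.01 there, but a mean over several genes varies less than 1 gene does. The part of cell types in the deviations on that array was not tested. The lys spike was also highest on that array within DA N (5.78, against 4.78 and 3.53 on the other two), and its part in the deviations was not tested.

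**Figure D3:**
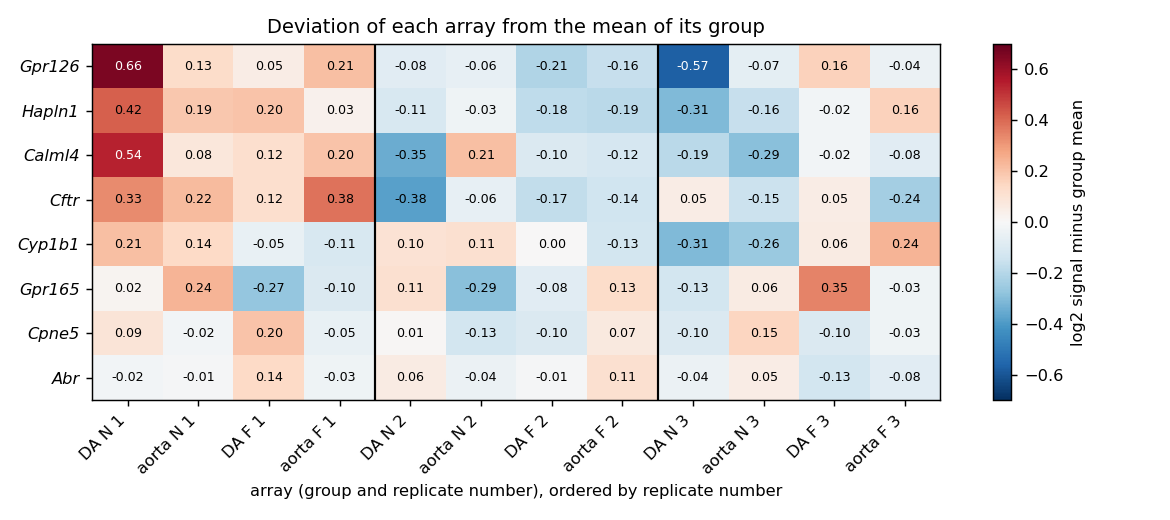
Deviation of each array's log2 signal from its group's mean (colour and printed value) for the 8 genes (rows) on the 12 arrays (columns, ordered by replicate number, with lines between the numbers). Gpr126, Hapln1, Calml4 and Cftr are above their group means on all 4 arrays numbered 1, by 0.66, 0.42, 0.54 and 0.33 on DA N replicate 1, while Cpne5 and Abr stay within 0.20 of theirs.

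With the group means taken out, the deviations of Gpr126 correlated with those of Hapln1 at r = 0.85, of Calml4 at r = 0.76 and of Cyp1b1 at r = 0.60 over the 12 arrays. Calml4 correlated with Cftr at r = 0.79 and with Hapln1 at r = 0.77, and Cyp1b1 with Hapln1 at r = 0.71. Cpne5 and Abr correlated with each other at r = 0.77. Gpr165 had no correlation above 0.22 with another gene of the set. These 28 correlations describe points that share arrays, RNA pools and the lys pattern above, and the raw values correlated at 0.89 to 0.99 because all 8 genes carry the vessel difference that chose them.

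Over the same deviations, the named genes most like each of the 8 were searched among all tested probe sets with 1 symbol. Gpr126 was closest to Lmtk2 (r = 0.98) and Fdxacb1 (0.96), Calml4 to Cebpg (0.98) and Rpa3 (0.93), Cftr to Pcgf3 (0.98) and Gne (0.96), and Hapln1 to Trmt13 and Plpbp (0.95 each). Gpr165 was closest to Jdp2 (0.92) and Acox3 (0.90), Cpne5 to Trerf1 (0.94) and Pced1b (0.93), Cyp1b1 to Tom1l1 (0.91) and Emc4 (0.90), and Abr to Ccdc51 (0.95) and Sf3a1 (0.93). These are the highest of very many correlations over 12 arrays and are given as descriptions.

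The relatives and partners of the 8 genes were read from 10 lists, with the 8 themselves left out. Of 178 listed genes 134 had a probe set under the symbols used here and 110 were tested. Genes without one were not read, so the counts and medians of the lists leave them out. Among these were Celsr1, which the study lists as higher in the DA in N, and Gpr161, which it lists as higher in the DA in F. Over both stages 9 were higher in the DA, 12 were lower and 89 did not pass, so 19.1% were called, against 8.12% of all probe sets (3.19% higher and 4.93% lower). With the replicate number as a block 31 of the 110 were called (28.2%), against 17.8% of all probe sets. The lists were chosen with earlier results of these data known. They also hold named genes only, while 11899 of the 18690 probe sets tested had 1 symbol. The shares are thus not a like comparison, and nothing is read from their difference. The calls on these 10 lists made without the block were all kept when any 1 array was left out, except those of Gpr39 and Arnt2. The median difference of all probe sets was 0.00.

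Among 13 other adhesion receptors tested, 1 was higher and 2 were lower in the DA, with a median difference of -0.13. Adgrl4, an endothelial receptor also called Eltd1, averaged 9.80 ± 0.15 in DA N, 10.38 ± 0.07 in aorta N, 9.70 ± 0.07 in DA F and 10.36 ± 0.08 in aorta F (SD, n = 3), a difference of -0.62 (adjusted p = 0.000306). Adgre5, the leukocyte and endothelial receptor CD97, was lower as well (-0.48, adjusted p = 0.00466). Adgrg1, also known as Gpr56 and a relative of Gpr126, ran the other way at 0.79 (adjusted p = 0.00013). Adgrf5, which ECs also express, had -0.13 and did not pass. With the block 5 of the 13 were called, adding Adgrb3 (-0.71, adjusted p = 0.0214) and Adgrl2 (0.28, adjusted p = 0.00599).

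Of the genes whose products are known to bind or activate Gpr126 (type IV collagen chains, laminin-211 chains and the prion protein, the last from mouse), 5 were tested. Prnp, the prion protein, was the 1 called. Its log2 signal averaged 7.19 ± 0.32 in DA N, 5.37 ± 0.16 in aorta N, 6.98 ± 0.09 in DA F and 5.09 ± 0.39 in aorta F (SD, n = 3), a difference of 1.85 (adjusted p = 3.68e-06). It was thus higher in the vessel in which Gpr126 was lower. Col4a1 had -0.28, Col4a3 0.23, Col4a4 0.11 and Lamc1 0.16, and none of these passed.

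The largest difference among these relatives and partners was that of another receptor. Gpr182, a receptor of the atypical chemokine type known in ECs, averaged 9.47 ± 0.31 in DA N, 7.43 ± 0.22 in aorta N, 9.35 ± 0.13 in DA F and 7.31 ± 0.22 in aorta F (SD, n = 3), a difference of 2.04 (adjusted p = 8.07e-07). Of the 23 orphan class A receptors tested beside Gpr165, 2 were higher and 1 was lower in the DA, with a median of 0.02. Gpr176 was higher (0.56, adjusted p = 0.00575). Gpr39, a zinc-sensing receptor, was lower (-0.74, adjusted p = 0.0338), and that call was lost without any 1 of 9 of the 12 arrays, at an adjusted p of up to 0.0915. With the block 6 of the 23 were called, adding Gpr37 (0.36), Gpr75 (-0.38) and Gpr146 (-0.30).

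The relatives of the calcium-binding genes come next. Beside Calml4, limma called 0 of the 5 tested genes of the calmodulin and brush border list (0 with an unadjusted p under 0.05), with a median of 0.02. Calm2, which encodes calmodulin itself, had -0.09 and Calm3 0.22, and Calm3 passed with the block (adjusted p = 0.0440). Ush1c and Cdhr5, parts of the brush border complex in which Calml4 is known, had 0.11 and 0.02. Of the 3 other copines tested, Cpne8 was lower in the DA (-0.44, adjusted p = 0.00799) and Cpne7 was higher (0.47, adjusted p = 0.00431), while Cpne3 had -0.31 and passed with the block (adjusted p = 0.0192).

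Among 10 other transporters of the ABCC family, to which Cftr belongs, 1 was called. Abcc4, which exports cyclic AMP and prostaglandins, averaged 7.78 ± 0.28 in DA N, 8.97 ± 0.05 in aorta N, 7.75 ± 0.24 in DA F and 8.95 ± 0.10 in aorta F (SD, n = 3), a difference of -1.19 (adjusted p = 1.96e-05). The other 9 lay between -0.17 for Abcc1 and 0.08 for Abcc8. Of 14 tested genes of chloride secretion and of Cftr's partners, 0 were higher and 3 were lower in the DA, with a median of -0.08. They were Ezr, the ezrin linker between Cftr's scaffold and actin (-0.78, adjusted p = 0.000162), the potassium channel Kcnq1 (-0.77, adjusted p = 0.000102) and the chloride-loading cotransporter Slc12a2 (-0.64, adjusted p = 0.0103). The scaffolds Slc9a3r1 and Slc9a3r2 (-0.18 and -0.13), the kinase subunit Prkaca (0.07) and the calcium-activated chloride channel Ano1 (-0.11) did not pass.

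Ahr, the receptor that drives Cyp1b1 in many tissues, was lower in the DA. It averaged 7.57 ± 0.15 in DA N, 8.40 ± 0.03 in aorta N, 7.71 ± 0.13 in DA F and 8.45 ± 0.06 in aorta F (SD, n = 3), a difference of -0.78 (adjusted p = 5.31e-05). Its partner Arnt had -0.11 and did not pass. Arnt2 was higher (0.39, adjusted p = 0.0429), a call lost without any 1 of 10 of the 12 arrays (adjusted p up to 0.116), without the filter on low signals (0.0675) and with trended, robust moderation (0.0523). The other Ahr targets gave no call, with Nqo1 at -0.36, Aldh3a1 at 0.06 and Cyp1a2 at 0.02. Cyp1a1, the classic target, and the repressor Ahrr did not reach the lys mean and were not tested, with group means of 3.41 to 3.56 for Cyp1a1 and 3.86 to 4.19 for Ahrr.

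In the matrix to which Hapln1 belongs, 15 other genes were tested, 2 of them higher and 1 lower in the DA, with a median of 0.05. The link protein Hapln3 was lower (-0.57, adjusted p = 0.002), while Hapln2 and Hapln4 had 0.06 and -0.06. Vcan, the versican that link proteins fasten, averaged 12.30 ± 0.03 in DA N, 11.81 ± 0.03 in aorta N, 12.24 ± 0.10 in DA F and 11.82 ± 0.07 in aorta F (SD, n = 3), a difference of 0.46 (adjusted p = 0.00138). Has2, the main hyaluronan synthase of developing heart and vessels, was also higher (0.70, adjusted p = 0.00464). The other proteoglycans Acan (-0.11), Ncan (-0.01) and Bcan (0.06) and the synthase Has3 (0.05) did not pass. The hyaluronan receptors Cd44 (0.19) and Lyve1 (-0.40) did not pass.

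Around Abr, 16 genes of the Rac and Cdc42 cycle were tested, 1 higher and 2 lower in the DA, with a median of -0.07. Pak1, a kinase activated by Rac and Cdc42, averaged 5.60 ± 0.34 in DA N, 7.06 ± 0.26 in aorta N, 5.78 ± 0.35 in DA F and 7.11 ± 0.36 in aorta F (SD, n = 3), a difference of -1.39 (adjusted p = 0.000176). Chn1 and Chn2, 2 chimaerins that like Abr turn off Rac, moved in opposite directions at 0.70 (adjusted p = 0.000797) and -0.47 (adjusted p = 0.00324). Rac1 (-0.06) and Cdc42 (-0.08), the GTPases themselves, did not pass. With the block 6 of the 16 were called, adding Rac2 (0.34), Vav2 (0.49) and Pak2 (-0.32).

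**Figure D4:**
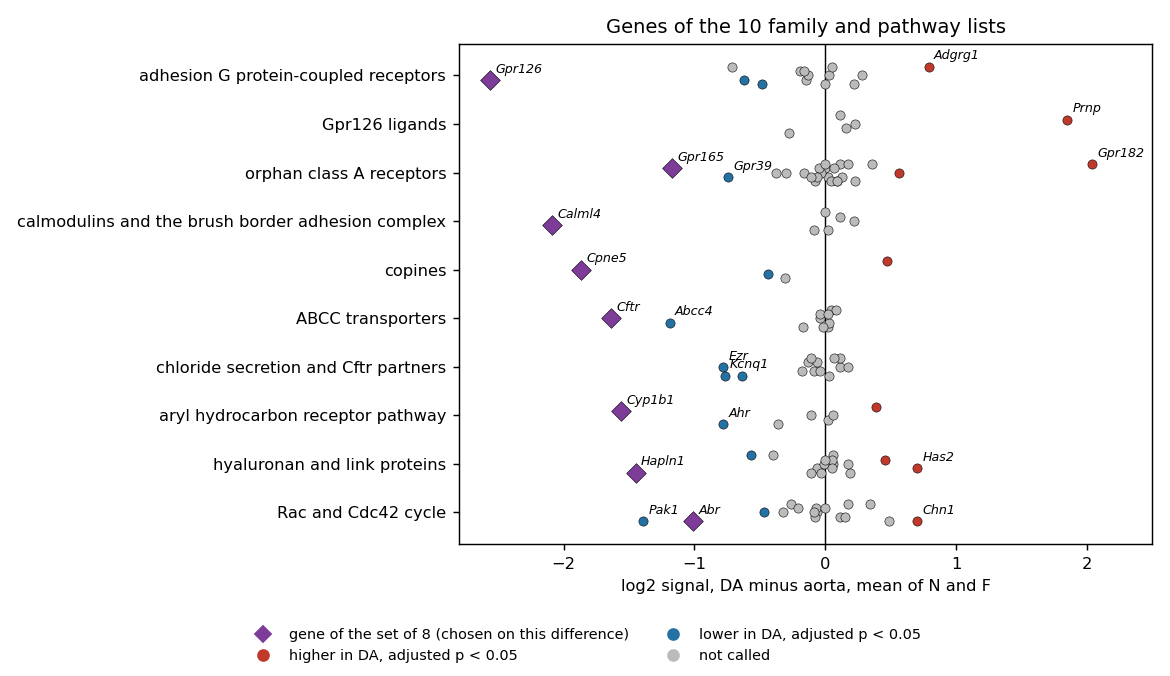
Difference in log2 signal, DA minus aorta averaged over N and F, for the tested genes of the 10 family and pathway lists (rows), a point per gene coloured by limma's call, with the 8 chosen genes as diamonds. The diamonds lie between -2.56 (Gpr126) and -1.01 (Abr), Gpr182 (2.04) and Prnp (1.85) lie farthest to the other side, and grey points crowd near 0.

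Markers of other cell types also differed between the vessels. Of 9 smooth muscle markers tested by limma 4 were higher and 1 was lower in the DA over both stages. The largest were Actg2 (1.52, adjusted p = 2.41e-05) and Tagln (1.03, adjusted p = 0.0016), and the lower one was Myocd (-0.59, adjusted p = 0.00477). Smtn (0) and Lmod1 (0.05) did not pass. The mean of the list was 7.5 to 7.81 in DA N, 7.11 to 7.14 in aorta N, 7.38 to 7.56 in DA F and 7.03 to 7.10 in aorta F. With the block 6 were higher, adding Myh11 (0.42) and Cnn1 (0.38). Of 15 endothelial markers 3 were lower in the DA, Plvap (-0.77), Cldn5 (-0.62) and Flt1 (-0.55), and the mean of the list was 9.86 to 9.91 in DA N, 10.09 to 10.10 in aorta N, 9.73 to 9.83 in DA F and 9.92 to 10.18 in aorta F. With the block 5 of the 15 were lower, adding Nos3 (-0.24, adjusted p = 0.0268) and Ets1 (-0.23, adjusted p = 0.0472). The endothelial list thus ran in the direction of the 8 genes. Those 8 were picked on this difference, so the sizes are not compared, and the part of the list in their differences was not tested. Leukocyte markers gave 0 calls among 3 tested by limma (1 with an unadjusted p under 0.05, Cd68, called with the block at -0.31), and 5 others, Ptprc among them, did not reach the lys mean. Of 4 mesothelial markers 2 were higher in the DA, Tbx18 (1.15, adjusted p = 8.78e-07) and Msln (0.56, adjusted p = 0.00244), with Krt7 (0.26) added by the block, and the list mean was 6.86 to 6.91 in DA N, 6.34 to 6.53 in aorta N, 6.89 to 6.99 in DA F and 6.40 to 6.44 in aorta F. Of 8 fibroblast markers Col1a1 (-0.48, adjusted p = 0.00453) and Fbln1 (-0.50, adjusted p = 0.000869) were lower and Col1a2 (0.30, adjusted p = 0.0287) was higher, the last call being lost without any 1 of 10 arrays and without the filter on low signals. The block added Col3a1 (0.25), Dcn (0.44) and Dpt (0.47). Of the Schwann cell markers Mbp alone was called (0.52, adjusted p = 0.0244, lost without any 1 of 6 arrays), and of the erythroid markers Epb42 alone (0.62, adjusted p = 0.0164). With the stricter filter 3 erythroid markers were tested and 0 called. By stage, Hbb had -1.17 in N and 0.27 in F, Hba-a1 -0.33 and 0.06, and Alas2 -0.38 and 0.19. Slc4a1 had -0.11 and 0.12, and Epb42 0.46 and 0.78. The study lists Hbb as higher in the aorta in N. Limma called 0 of the 7 lymphatic and venous endothelial markers (2 with an unadjusted p under 0.05), and with the block Flt4 (0.41, adjusted p = 0.0166). Without the block Flt4 had an adjusted p of 0.0518. With quantile normalization, the stricter filter, or trended, robust moderation, 1 of the 7 was also called higher in the DA. The part of these cell types in the differences of the 8 genes was not tested.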

How the data were processed

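The 12 arrays, 3 in each group, were of the Rat Gene 1.0 ST type and read RNA of sorted ECs. The authors deposited log2 signals per probe set, already summarised and normalized. How they did so: not given in the sources used here. No further normalization was applied.

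Symbols came from the platform's table, updated through RefSeq (15307 probe sets with 1 symbol, 323 with several and 10838 with none). The Gpr126 probe set had none there and was named through the study's own gene list. Testing was limited to the 18690 probe sets with a mean signal at least as high as the mean of the lys spike. Limma 3.58.1 in R 4.3.3 fitted 1 mean per group, with 7 contrasts and Benjamini-Hochberg adjustment over all tested probe sets at 0.05. The fit was tested on simulated data in which same-numbered arrays shared nothing, so that test does not cover an effect of the replicate number. The number of arrays limits the precision. A list gene used its brightest probe set. Named were the 8 genes, the 2 closest by deviations from group means, each called list gene and up to 4 more per list. Other list genes, among them Arnt, Ahrr, Cyp1a1, Adgrf5 and the markers, were named after their values were seen. The 8 genes and the lists were chosen with earlier results of these data known.

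Deviations of same-numbered arrays correlated across probe sets at 0.54 to 0.82 (replicate 1), 0.10 to 0.30 (replicate 2) and 0.39 to 0.74 (replicate 3), against -0.74 to 0.37 for different numbers, so the replicate number was also fitted as a block. The meaning of the numbers was not stated, and litters may be common to both vessels of a stage. Further alternatives were quantile normalization, other filters, trended and robust moderation, the methods' t-test and leaving out each array.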

Additional observations from a re-analysis of the deposited data

How the results depend on the processing

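None of the 32 results between N and F for the 8 genes passed the test under any of 512 alternatives, where the smallest adjusted p was 0.58. The 3 arrays per group limit this, since intervals for the 8 genes reach up to 0.78 in the DA. 14 of the 32 values changed sign under at least 1 alternative, the largest of them Gpr126's change in the vessel difference (0.28). Quantile normalization turned Gpr165 in the aorta to -0.03. With 1 array left out, N minus F in the DA ran from -0.14 to 0.48 for Gpr126, -0.02 to 0.13 for Cpne5 and -0.35 to 0.02 for Hapln1. In the aorta it ran from -0.17 to 0.01 for Gpr126, -0.11 to 0.15 for Gpr165, -0.20 to 0.05 for Calml4, -0.12 to 0.19 for Cftr and -0.13 to 0.04 for Hapln1. Over both vessels it ran from -0.11 to 0.19 for Gpr126, -0.02 to 0.20 for Calml4 and -0.05 to 0.02 for Abr, and for the change in the vessel difference from -0.04 to 0.57 for Gpr126, -0.05 to 0.23 for Cyp1b1 and -0.31 to 0.06 for Hapln1.

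Counts over all probe sets moved more, and the cause was not tested. With the replicate block limma called 1358 between the vessels in N (586 without it), 1951 in F (705), 3327 over both stages (1518), 10 for N minus F within the DA (1), 3 within the aorta (0) and 23 over both vessels (2). Beside the list genes named in the report, the block changed no call of the 8 genes between N and F. With trended, robust moderation 2 were called between N and F in the DA and 4 over both vessels. By the methods' t-test, 2-fold differences with an unadjusted p under 0.05 numbered 242 in N, 262 in F, and, between N and F, 7 in DA and 1 in aorta, and after Benjamini-Hochberg 44, 67, 0 and 0. The t-test was run here on the 18690 probe sets tested. The study left out more probe sets as low in signal, so these counts are not its own. Leaving out 1 array gave 318 to 583 in N, 489 to 766 in F, 1121 to 1509 over both stages and 0 to 4 between N and F in the DA. In N the lowest counts came without DA N replicate 2 (318), aorta N replicate 1 (344) and aorta N replicate 2 (371). Leaving out DA N replicate 1 also removed 1 array and gave 533. The mean over several probe sets was not run, since each of the 8 genes has 1, and the t-test was not run for contrasts over more than 2 groups.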
